A study of Mus musculus with 6 samples.

Results

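The 31 genes described here encode enzymes of cholesterol and fatty acid synthesis, together with the proteins that sense sterols and switch these enzymes on. They were taken by name from a table of 31469 rows, and each name had 1 row. The libraries, 3 from wild-type and 3 from Dicer knockout C57BL/6 mice at postnatal day 21, hold RNA of neurons that express parvalbumin, collected from the dorsal root ganglion at lumbar level 4. In the knockout animals, Dicer, the ribonuclease that releases mature microRNAs from their precursors, was deleted by a Cre recombinase driven by parvalbumin. The deletion is therefore restricted to cells in which the parvalbumin driver has been active, and it begins only once it is. The labels name neither the Dicer allele nor the Cre status of the wild-type animals, and nothing in them ties a library to an animal of its own, so that a p-value here reflects the variation among 6 libraries, some of which may be technical.

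Cholesterol is built from acetyl-CoA in the cytosol. The mevalonate arm makes isoprenoid units, and the sterol arm joins them to squalene, closes the rings and trims lanosterol to cholesterol. Fatty acids start from the same acetyl-CoA, are elongated by Elovl enzymes and are given double bonds by Scd and Fads desaturases. Both routes are switched on by the transcription factors SREBP-1 and SREBP-2, which Scap escorts out of the endoplasmic reticulum when sterols are low and which Insig proteins hold back when sterols are plentiful. Sensory neurons need these lipids for the membrane of long axons, and the satellite glia around their cell bodies make them as well.

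All 31 genes reached the mean of 1 TPM (the share of a library's transcripts, scaled for length) that was asked of a row before testing. Of these, 1 was lower in knockout libraries and 0 were higher by limma at an adjusted p below 0.05, against 3.17% of the 13787 tested rows called lower, 1.86% called higher and 5.03% called in either direction. The called gene was Elovl5, an elongase of polyunsaturated fatty acids. Without adjustment, 9 had a p below 0.05, with 3 above and 6 below wild type, against 23.8% of tested rows. The median log2(TPM + 1) difference, knockout minus wild type, was -0.10 over the 31 genes and -0.05 over all tested rows. Groups did not overlap for 10 of the 31 genes (32.3%), against 28.9% of tested rows (17.1% lower and 11.8% higher), so the share of separated genes lay near the background. Among these 10, Pmvk, Lss, Insig2, Acly, Elovl5, Fads1 and Fads2 were lower in every knockout library than in any wild-type library, and Fdft1, Sqle and Scd1 were higher.

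The promoter letters of 3 members are shown as examples of motifs through which SREBP or its partners are known to act. Of these 3, only Hmgcs1 held the sterol regulatory element. RefSeq promoter windows on GRCm38.p6, running from 250 bases before to 50 bases after a gene's start, were found for 24 of the 31 genes by symbol. Motifs were searched on both strands, and a gene with several windows counted once. The sterol regulatory element TCACNCCAC was found in 1 of the 24 (4.2%), namely Hmgcs1, against 1.38% of the 9462 tested genes with a window. The CCAAT box, bound by NF-Y, was found in 19 (79.2%) against 43.1%, and the E-box CACGTG in 5 (20.8%) against 11.7%. These matches describe letters in the windows and were not measured as binding sites. Below, the stretch from 250 to 11 bases before the start is written along the gene's own strand, with motif matches in capitals, where ATTGG is the CCAAT box read from the other strand.
Hmgcs1, plus strand of chr13:119690101-119690340: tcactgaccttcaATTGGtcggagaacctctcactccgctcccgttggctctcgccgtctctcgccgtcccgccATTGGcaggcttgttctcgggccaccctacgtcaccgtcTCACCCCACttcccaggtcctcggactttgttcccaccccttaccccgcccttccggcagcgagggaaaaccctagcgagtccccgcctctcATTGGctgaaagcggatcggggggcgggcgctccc
Elovl5, plus strand of chr9:77917115-77917354: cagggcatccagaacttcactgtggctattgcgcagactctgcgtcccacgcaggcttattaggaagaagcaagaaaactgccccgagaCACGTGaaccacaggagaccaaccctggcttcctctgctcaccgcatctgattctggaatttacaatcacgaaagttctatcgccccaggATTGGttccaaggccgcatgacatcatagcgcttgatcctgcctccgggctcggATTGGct
Insig2, minus strand of chr1:121332600-121332839: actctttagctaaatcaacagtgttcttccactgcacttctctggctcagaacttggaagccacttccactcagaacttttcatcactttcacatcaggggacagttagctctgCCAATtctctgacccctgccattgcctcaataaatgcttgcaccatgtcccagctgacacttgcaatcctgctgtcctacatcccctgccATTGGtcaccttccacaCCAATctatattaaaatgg
Hmgcs1, the only one of the 24 genes with a match to the sterol regulatory element, also held CCAAT boxes. The Elovl5 stretch holds CCAAT boxes and an E-box, and the Insig2 stretch only CCAAT boxes. The windows of Acat2, Acaca, Elovl6 and Fads2 held none of the motifs.

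**Figure D1:**
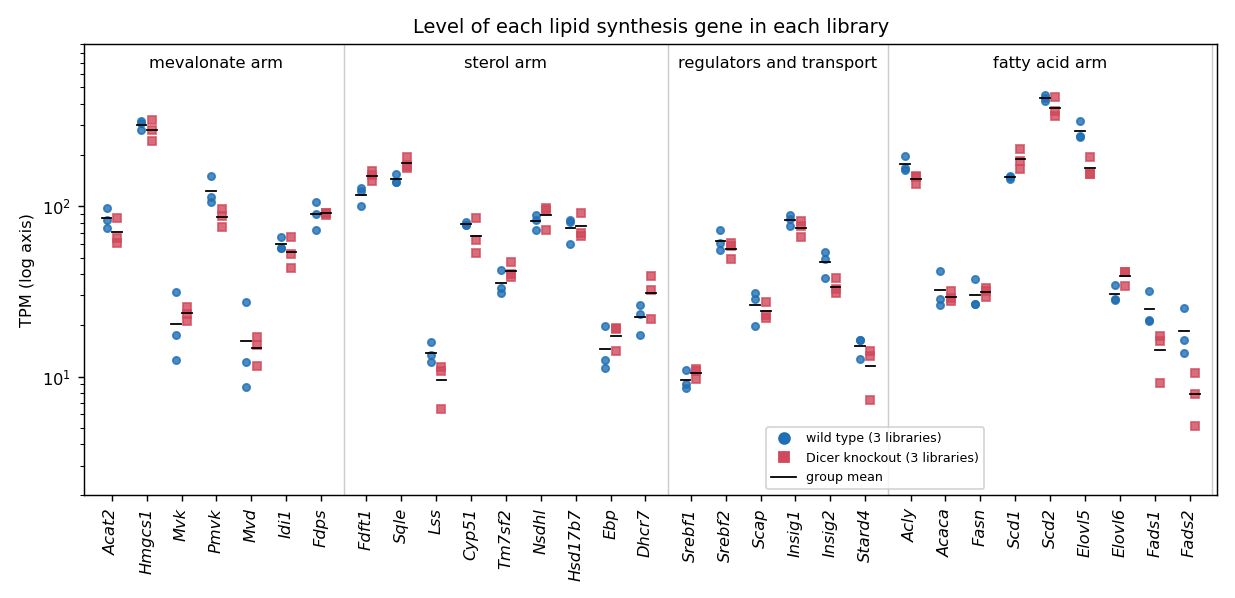
Level of each of the 31 genes in TPM on a log axis, with 3 wild-type libraries as circles and 3 knockout libraries as squares, grouped by role; black lines are group means. Levels run from about 10 TPM for Srebf1 to about 408 TPM for Scd2, and most genes overlap between genotypes.

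The genes were well expressed. Their means over the 6 libraries had a median of 57.1 TPM against 16.0 TPM for all tested rows, and 25 of 31 lay above that background median. Scd2 was highest at 408 TPM, in the 97.2th percentile of tested rows, followed by Hmgcs1 at 292 and Elovl5 at 222 TPM. Scd1, Sqle and Acly followed at 169, 162 and 161 TPM, which is closer together than their spread between libraries. Srebf1 was lowest at 10.04 TPM, after Lss at 11.7, Fads2 at 13.1 and Stard4 at 13.3 TPM. The median coefficient of variation within a group was 13.8% in wild type and 13.3% in knockout.

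None of the 16 enzymes of the cholesterol arm passed the test, with a median log2 difference of 0.03. Before adjustment 2 lay above and 1 below wild type with a limma p under 0.05, and 0 were called in any of the 19 alternative analyses. For 15 of the 16 the 95% interval of the difference stayed within 1 log2 unit of 0, which leaves out a doubling or a halving on this scale; such intervals were found for 63.4% of all tested rows. The exception was Lss. The summed level of the 16 was 1231, 1386 and 1224 TPM in wild-type libraries and 1212, 1262 and 1381 TPM in knockout libraries. These sums overlapped, with means of 1280.4 ± 91.7 and 1285 ± 86.7 TPM (SD, n = 3 each).

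None of the 7 mevalonate enzymes passed the test, and 4 had estimates below 0 (57.1%, against 55.0% of all tested rows). Hmgcs1, which condenses acetyl units to HMG-CoA, was at 280.0, 307 and 319 TPM in wild type and 242, 283 and 323 TPM in knockout. Its groups overlapped, and the interval of its log2 difference ran from -0.39 to 0.18. Pmvk, which adds the next phosphate to phosphomevalonate, was at 107, 152 and 113 TPM in wild type and at 88.3, 75.2 and 96.2 TPM in knockout. All 3 knockout values lay below the wild-type values. The log2 difference was -0.50 (SE 0.16, limma adjusted p = 0.103), which did not pass. Acat2, the thiolase at the head of the route, averaged 85.1 and 70.3 TPM in wild type and knockout, and Idi1, the isopentenyl diphosphate isomerase, 60.1 and 54.1 TPM. Fdps, which makes farnesyl diphosphate, was nearly level at 89.8 and 90.8 TPM. Mvk and Mvd, the mevalonate kinase and decarboxylase, had the widest relative spread in wild type. Mvd was at 12.2, 27.4 and 8.65 TPM in wild type, a spread that holds all 3 knockout values. Mvk ranged from 12.5 to 31.2 TPM in wild type and from 21.3 to 25.7 TPM in knockout. Both were highest in wild-type replicate 2.

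The entry to the sterol arm leaned the other way. Fdft1, squalene synthase, was at 128, 123 and 100.5 TPM in wild type and at 152, 162 and 141 TPM in knockout. Every knockout library exceeded every wild-type library, by 0.37 on the log2 scale (SE 0.13, adjusted p = 0.12). Sqle, the squalene epoxidase and a rate-limiting step, was at 156, 139 and 139 TPM in wild type and at 168, 196 and 173 TPM in knockout. Its groups did not overlap either, with a log2 difference of 0.30 (SE 0.11, adjusted p = 0.145). Lss, the cyclase that turns squalene epoxide into lanosterol, stood on the opposite side at 12.1, 15.9 and 13.4 TPM against 11.3, 6.42 and 10.8 TPM. Its difference of -0.52 (SE 0.24, adjusted p = 0.232) rested in part on knockout replicate 2, and it was -0.29 without that library. None of these 3 differences passed the test.

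The later sterol enzymes overlapped between genotypes. Dhcr7, the reductase of the last step to cholesterol, averaged 22.4 ± 4.47 TPM in wild type and 31 ± 8.56 TPM in knockout (adjusted p by limma 0.30). Cyp51, the lanosterol demethylase, was at 77.9, 77.3 and 80.9 TPM in wild type and spread from 53.4 to 85.7 TPM in knockout. Tm7sf2 and Nsdhl, which act after Cyp51, averaged 35.4 and 81.6 TPM in wild type and 41.7 and 88.7 TPM in knockout. Hsd17b7, a ketosteroid reductase, averaged 74.7 and 76.2 TPM, and Ebp, the sterol isomerase, 14.5 and 17.4 TPM. Summed over the 9 genes, the sterol arm came to 615, 599 and 535 TPM in wild type and 650.5, 657 and 679 TPM in knockout, so that these sums did not overlap. Without Fdft1 and Sqle, a pair left out after their values were seen, the sums overlapped, at 331.6, 336.9 and 294.7 TPM against 330.9, 298.8 and 366.3 TPM. The mevalonate sums did, at 615, 788 and 689.7 against 561, 606 and 701 TPM.

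**Figure D2:**
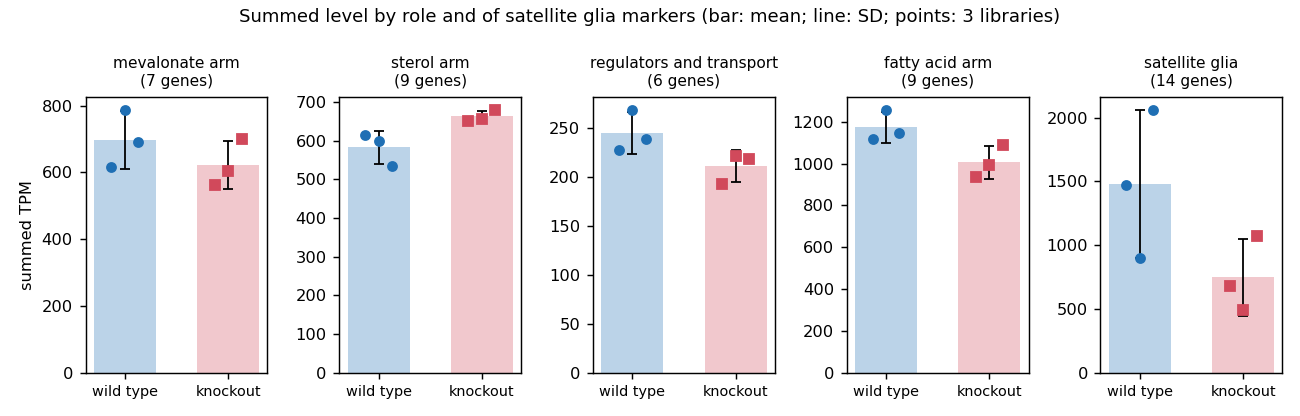
Summed TPM of the genes of each role and of 14 satellite glia markers, with bars at the mean, lines for the SD and points for 3 libraries a group. The summed sterol arm is higher in knockout libraries and the summed fatty acid arm and regulators are lower, but the sterol sums overlap without Fdft1 and Sqle, the fatty acid sums overlap without Elovl5, and 0 sterol genes and 0 regulators were called.

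None of the regulators or the sterol carrier passed the test, and all 6 intervals stayed within 1 log2 unit of 0. Srebf2, which encodes the SREBP of the cholesterol genes, was at 55.6, 72.2 and 61.3 TPM in wild type and 49.3, 58.7 and 61.0 TPM in knockout. Srebf1, which encodes the SREBP of the fatty acid genes, was at 9.08, 8.59 and 10.9 TPM against 10.8, 11.2 and 9.68 TPM. Both overlapped between genotypes, and Srebf2 exceeded Srebf1 in every library. Scap was at 31.1, 28.6 and 19.7 TPM in wild type and at 27.3, 23.1 and 22.0 TPM in knockout. Insig1, itself a target of SREBP, was at 77.0, 89.2 and 84.6 against 65.7, 77.0 and 82.0 TPM. Neither Scap nor Insig1 separated the groups. Insig2 was at 38.0, 53.6 and 49.4 TPM in wild type and 32.5, 37.8 and 30.9 TPM in knockout. Its highest knockout value lay just below its lowest wild-type value. The log2 difference was -0.46 (SE 0.16, adjusted p = 0.137), short of the threshold. Stard4, a cytosolic sterol carrier, averaged 15.2 ± 2.1 and 11.5 ± 3.72 TPM, with a low value of 7.27 TPM in knockout replicate 1.

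**Figure D3:**
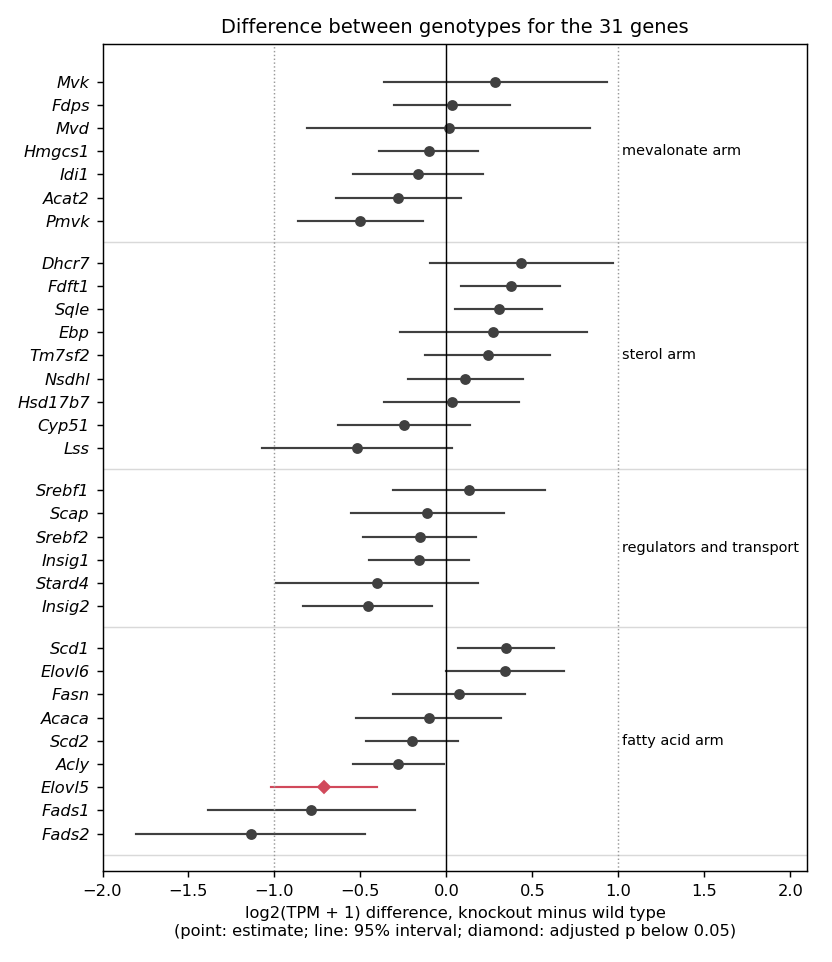
Difference in log2(TPM + 1), knockout minus wild type, for the 31 genes by role; points are limma estimates, lines 95% intervals, and the diamond marks an adjusted p below 0.05. Elovl5 is the one called gene at -0.71, and Fads1 and Fads2 lie as far below 0 with wider intervals.

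The fatty acid arm held the called gene, and its members differed in both directions, from -1.14 (Fads2) to 0.35 (Scd1) on the log2 scale. Elovl5, which lengthens polyunsaturated fatty acids and lies on chromosome 9 from 77917364 to 77984519 (GRCm38), was at 258, 316 and 254 TPM in wild type. In knockout it was at 156, 154 and 194 TPM, below wild type in 3 of 3 libraries. Elovl5 thus fell by 0.71 on the log2 scale (SE 0.14, 95% interval -1.02 to -0.41, limma adjusted p = 0.0233), from a mean of 276 ± 35.0 to 168 ± 22.6 TPM (SD, n = 3 each). The difference stayed between -0.88 and -0.61 in all 19 alternatives. The call was lost without wild-type replicate 2 (adjusted p = 0.0649) or 3 (0.0543), without knockout replicate 1 (0.0977) or 2 (0.0871), and without the intensity trend (0.0971).

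Fads1 and Fads2, the front-end desaturases that work with Elovl5 in making long polyunsaturated fatty acids, lay on the same side without passing the test. They are neighbours on chromosome 19, 81.1 kb apart (Fads1 at 10182888 to 10196877, Fads2 at 10062765 to 10101746, GRCm38). Fads2 was at 16.4, 13.8 and 25.2 TPM in wild type and at 7.92, 5.15 and 10.5 TPM in knockout. Fads1 was at 21.3, 21.4 and 31.9 TPM in wild type and at 16.2, 9.12 and 17.4 TPM in knockout. In both genes the groups did not overlap, wild-type replicate 3 was highest and knockout replicate 2 was lowest. The log2 differences were -1.14 for Fads2 (SE 0.29, adjusted p = 0.0598) and -0.79 for Fads1 (SE 0.27, adjusted p = 0.117). Fads2 passed in 5 alternatives, with adjusted p from 0.0282 to 0.185 over all of them. Fads3, the next gene of the cluster and named here for its position after its values were seen, was at 9.64, 11.3 and 11.2 TPM against 8.87, 6.09 and 8.01 TPM (log2 difference -0.45, adjusted p = 0.247).

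Most markers of satellite glia also had lower estimates in knockout. The 14 glial markers summed to 1471, 899 and 2061 TPM in wild type and 679.7, 489 and 1076 TPM in knockout, with the same highest and lowest libraries as Fads1 and Fads2. Of the 14, 2 were called lower (Fabp7 and Gja1), or 14.3% against 3.17% of all tested rows. Estimates were below 0 for 13 (92.9%, against 55.0%), and 0 were at 0 in every library. Groups did not overlap for 3 (21.4%, against 28.9%). Glul, the 1 estimate above 0, was higher without overlap, averaging 149 TPM in wild type and 226 TPM in knockout (limma adjusted p = 0.105). Fabp7, at 663 and 214 TPM, and Apoe, at 394 and 159.8 TPM, were large parts of the sum. With the mean glial level as a covariate, the log2 difference was -0.64 for Fads2 (adjusted p = 0.185) and -0.38 for Fads1 (adjusted p = 0.411). For Elovl5 it was -0.75, as large as without the covariate, with an adjusted p of 0.0843. The mean log2 glial level was 4.73, 3.94 and 5.43 in wild type and 3.97, 3.40 and 4.43 in knockout. The covariate thus varied with genotype, and the parts of the 2 cannot be told apart. Whether glia had a part in the Elovl5 and Fads differences was not tested. In bulk libraries, fewer cells of a type and less RNA per cell cannot be told apart. Of 6 adipocyte markers, a cell type rich in lipid synthesis, Plin1, Fabp4 and Cfd were listed at 0 in every library and 1 reached 1 TPM in all of them. Among other markers, given as wild type and knockout, the macrophage list summed to 7.29 and 4.56 TPM without overlap between groups. The endothelial list summed to 15.3 and 19.6 TPM and the fibroblast list to 30.1 and 27.3 TPM. A single gene made up most of each sum: Lyz2 at 7.05 and 3.91, Egfl7 at 15.2 and 18.8, and Dcn at 25.4 and 23.7 TPM. The other 4 macrophage markers stayed under 1 TPM in every library, so the separation of the macrophage sums rests on Lyz2. The sum of 10 myelinating Schwann cell genes was 515 and 1250.3 TPM, nearly all of it Pmp22, which sensory neurons can also express. Of the 5 tested, 3 had estimates above 0 and 2 below. Mbp went the other way from Pmp22 without overlap between groups, at 14.1 and 6.77 TPM (limma adjusted p = 0.0568). The part of these cells in the results was not tested.

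Markers of the neurons themselves also differed between the genotypes. All 11 markers of neurons and proprioceptors, the muscle and tendon afferents that express parvalbumin, reached 1 TPM in every library. However, 4 were called lower and 1 higher (45.5%, against 5.03% of all tested rows). Groups did not overlap for 10 of the 11 (90.9%, against 28.9% of all tested rows). Pvalb, the marker whose Cre was used, was at 25.0, 19.7 and 23.1 TPM in wild type and 4.02, 3.69 and 14 TPM in knockout (limma adjusted p = 0.0452). Runx3 and Etv1, transcription factors of proprioceptors, fell by 1.60 (limma adjusted p = 0.0169) and 0.89 (0.0153) on the log2 scale, and Spp1, a secreted phosphoprotein, fell by 1.48 (0.00197). Rbfox3, the general neuronal marker NeuN, rose by 0.47 (limma adjusted p = 0.0496). The 11 summed to 8591 and 6949 TPM without overlap between groups. Nefh, which was not called, was the largest part of this sum at 4578 and 3731 TPM (limma adjusted p = 0.162). Avil, like Rbfox3, was higher in knockout without overlap, at 174 and 246 TPM (limma adjusted p = 0.0519). The part of these marker differences in the Elovl5 and Fads differences was not tested.

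In the saturated and monounsaturated branch, Scd1 and Elovl6 lay above wild type and Scd2 below, and none passed the test. Scd1, a stearoyl-CoA desaturase that makes oleic acid, was at 151, 145 and 149 TPM in wild type, the smallest wild-type coefficient of variation of the 31 genes. In knockout it was at 165, 218 and 186 TPM, above wild type in every library. The log2 difference was 0.35 (SE 0.12, adjusted p = 0.129), which did not pass. Its relative Scd2, 87.6 kb away on chromosome 19, was at 418, 454 and 433 TPM against 339, 365 and 437 TPM, and its groups overlapped. Scd1 and Scd2 are similar in sequence, and how reads were shared between them affects both values. Elovl6, which lengthens saturated chains, was at 34.6, 28.5 and 28.3 TPM in wild type and 41.1, 41.2 and 34.1 TPM in knockout. Only the lowest knockout value fell within the wild-type range (log2 difference 0.34, adjusted p = 0.211).

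None of the enzymes that supply and build palmitate passed the test. Acly, which cuts citrate to acetyl-CoA, was at 163, 199 and 168 TPM in wild type and 152, 136 and 148 TPM in knockout. Its groups did not overlap, with a log2 difference of -0.28 (SE 0.12, adjusted p = 0.19). Acaca, acetyl-CoA carboxylase, averaged 32.2 ± 8.21 and 29.4 ± 2.13 TPM, and Fasn, fatty acid synthase, 30.2 ± 6.22 and 31.5 ± 1.96 TPM. Their intervals ran from -0.53 to 0.32 and from -0.31 to 0.46. Summed over the 9 fatty acid genes, wild type was at 1115, 1257 and 1145 TPM and knockout at 936, 992 and 1088 TPM. Without Elovl5 the sums were 857, 940.3 and 891 against 779.8, 838 and 894 TPM, and they overlapped.

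**Figure D4:**
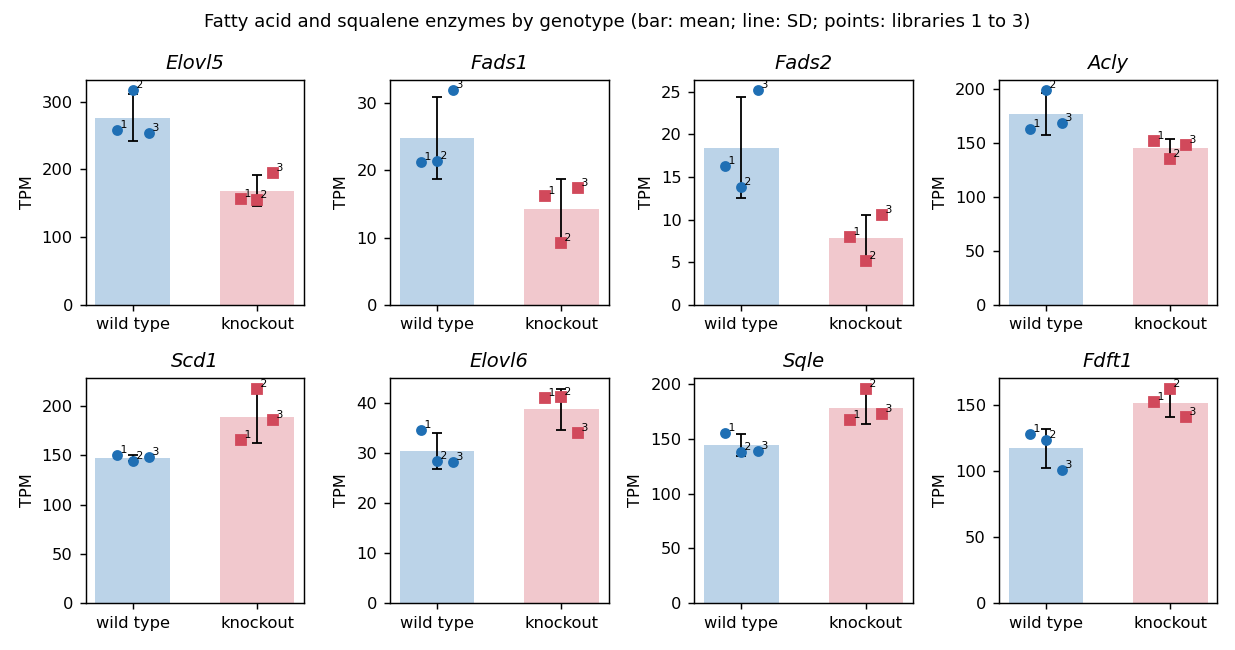
TPM of 8 enzymes by genotype, with bars at the mean, lines for the SD and points numbered by replicate. Elovl5, Fads1, Fads2 and Acly are lower in all knockout libraries; Scd1, Sqle and Fdft1 are higher in all of them, and Elovl6 overlaps in 1 knockout library.

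**Figure D5:**
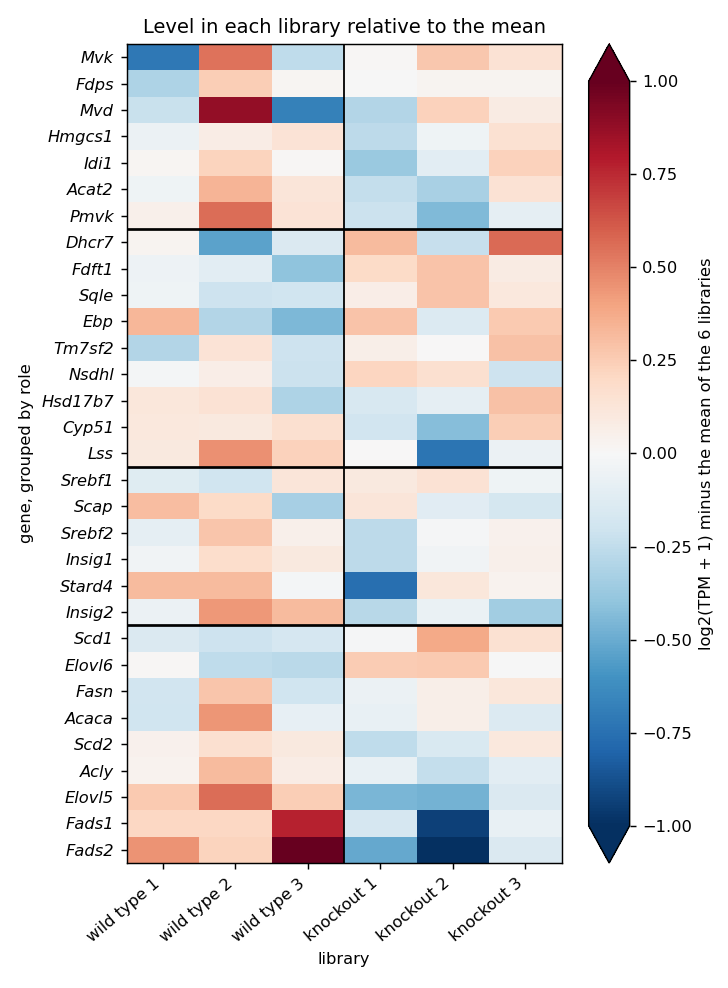
Level of each gene in each library as log2(TPM + 1) minus its mean over the 6 libraries, grouped by role. Wild-type replicate 2 is the highest library for 15 of the 31 genes, and the Fads1 and Fads2 rows differ most between wild-type replicate 3 and knockout replicate 2.

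Single libraries also stood apart over many of the genes. Wild-type replicate 2 had the highest value for 15 of the 31 genes, whereas wild-type replicate 3 and knockout replicate 2 each had the lowest value for 8. The median level relative to each gene's mean was 0.21 in wild-type replicate 2 and between -0.08 and 0.05 in the other libraries. Without wild-type replicate 2, the median difference of the cholesterol arm was 0.17 in place of 0.03.

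Other genes of lipid metabolism, taken from 3 further lists, gave 1 call. Elovl7, an elongase of saturated long chains, was at 171, 139 and 185 TPM in wild type and at 277, 276 and 284 TPM in knockout. It was higher in 3 of 3 knockout libraries and rose by 0.76 on the log2 scale (SE 0.12, adjusted p = 0.0128). Over the alternatives its difference ran from 0.65 to 0.91, and the call was lost without knockout replicate 1 (adjusted p = 0.0574), without both libraries numbered 3 (0.0543) and without the intensity trend (0.0733). Of 20 tested genes of fatty acid synthesis and elongation, Elovl7 was the 1 called (5%, against 5.03% of all tested rows). The share called thus lay near the background, and the list's median was -0.03. Tecr, the reductase of the elongation cycle, averaged 3858 and 4488 TPM, Acsl6, an acyl-CoA synthetase, 287 and 249.7 TPM, and Ptplad1, a dehydratase of the cycle, 177 and 149 TPM; none of the 3 passed. Elovl2, an elongase that acts on the products of Fads and Elovl5 and was singled out after its values were seen, was at 7.65, 3.2 and 10.2 TPM against 2.61, 0.67 and 3.28 TPM (adjusted p = 0.129). Its log2 difference of -1.33 passed with the replicate block (adjusted p = 0.0476) and was -0.50 with the glial covariate.

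Of 6 tested further genes of cholesterol synthesis, 0 were called and 0 had an unadjusted p below 0.05 by limma, with a median of -0.06. Ggps1, which makes geranylgeranyl diphosphate, averaged 149 and 164 TPM, Sc5d, a sterol desaturase, 107 and 119 TPM, and Sc4mol, a sterol demethylase also called Msmo1, 83.9 and 87.0 TPM. Of 13 tested genes of sterol uptake, efflux and storage, 0 were called by limma, with unadjusted p-values under 0.05 for 1 on the higher and 2 on the lower side, and a median of -0.13. Nr1h2, which encodes a sterol-sensing liver X receptor, was at 23.1, 17.6 and 18.0 TPM against 26.1, 25.9 and 26.5 TPM (adjusted p = 0.166). Vldlr, a lipoprotein receptor, was at 19.1, 21.9 and 29.4 TPM against 13.3, 9.44 and 16.4 TPM (adjusted p = 0.0843). Apoe, a lipoprotein that satellite glia secrete and that is also one of the 14 glial markers, averaged 394 ± 226 and 159.8 ± 104 TPM (adjusted p = 0.133) and was called in 2 alternatives.

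Srebf2 is also the host of a microRNA, which the deletion of Dicer bears on. The hairpin of miR-33 lies on chromosome 15 (82198122 to 82198190, GRCm38.p6), within an intron of all 3 coding Srebf2 transcripts that span it. Mature microRNAs were not measured in these libraries. Its mature sequence is shown with the seed, bases 2 to 8, in capitals.
mmu-miR-33-5p: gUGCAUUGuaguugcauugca
The matching site CAATGCA was searched on the transcript strand in the longest annotated 3' UTR of each gene (GENCODE vM21). It was found in 2 of the 31 genes (6.45%), against 8.20% of 11526 tested genes with a 3' UTR, so it was not more frequent among them. The 2 members were Nsdhl and Acaca, and the sterol exporters Abca1 and Abcg1, known as miR-33 targets, are shown beside them, with the site in capitals.
Nsdhl: tgatggtgCAATGCAatggtaca
Acaca: cttcagtcCAATGCActcttctc
Abca1: acactattCAATGCAatgcactt
Abcg1: acgcaacgCAATGCAacgcaatg
Abca1 held 3 matches, of which the first overlaps the next, and Abcg1 held 2; the first of each is printed. Abca1 was at 19.3, 14.2 and 25.5 TPM in wild type and 23.9, 26.6 and 22.7 TPM in knockout (log2 difference 0.33, adjusted p = 0.386). Abcg1 averaged 22.4 ± 4.12 and 26.7 ± 5.11 TPM (log2 difference 0.25, adjusted p = 0.495). The differences of Nsdhl and Acaca were 0.11 and -0.10. None of the 4 passed the test, and the groups of each overlapped.

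In the table as a whole, 256 rows were higher and 437 lower, and 36.9% of calls were higher, or 49.3% with median-of-ratios rescaling. Dicer1 was at 36.7, 26.0 and 48.7 TPM in wild type and 24.0, 20.8 and 21.8 TPM in knockout (adjusted p = 0.104). A value for the whole gene cannot show the loss of single exons. Replicate 3 of each group differed from the others in the sex-linked Xist and Ddx3y, and with a term for this the Elovl5 difference was -0.71 (adjusted p = 0.0367).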

How the data were processed

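Per the labels, libraries were made from total RNA extracted with PicoPure and amplified with an Ovation kit. Build mm10 and the programs RSEM 1.2.7, Bowtie2 and cutadapt are named in the submitters' processing notes; the annotation they used is not stated there. What the authors deposited are TPM values, 1 column per library, each summing to 1000000. TPM keeps no sequencing depth, so depth is unknown and no counting interval was computed; an exact 0 can be a failed estimate.

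The 13787 rows that averaged 1 TPM or more were fitted on the log2(TPM + 1) scale with limma 3.58.1 (R 4.3.3), using an intensity trend, genotype as the only term, two-sided tests and Benjamini-Hochberg adjustment over all of these rows (threshold 0.05). Differences on this scale understate those of low genes. Intervals of a difference are 95% intervals from the same fit, not adjusted for the number of genes. An exact permutation test of 3 against 3 cannot go below 0.1 and was not used. Calling was tested on simulated data with known changes.

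The members, roles, lists and markers were chosen with earlier results of these data known. Every member is reported; called members, members whose groups do not overlap and the regulators are given in every library. Of the other lists, called genes and up to 4 of the highest are named, and Fads3, Elovl2, Vldlr, Nr1h2, Abca1 and Abcg1 were named outside this rule. Sequence searches used Python 3.11.15, RefSeq promoters and GENCODE vM21 transcripts, whose assembly is that of mm10. Alternatives changed the pseudocount, filter, scaling, trend, weights, covariates and libraries.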

Additional observations from a re-analysis of the deposited data

How the results depend on the processing

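Of the 31 genes, 22 kept the sign of their difference in all 19 alternatives and 9 did not; 0 were called higher in any of them. The count called lower, 1 as reported, was 2 (Elovl5 and Fads2) with a mean of at least 5 TPM, quantile normalization, library weights, a replicate block or a term for Y-linked transcripts, 0 without the intensity trend or with the glial covariate, and 0 to 1 when a library was left out. Over all tested rows, same-numbered libraries deviated together only weakly (correlations 0.049, 0.066 and 0.038), and wild-type replicate 3 deviated more with knockout replicate 1 (0.070). The main fit, with genotype as its only term, did not pair them. The mean log2 glial level did rank the replicates alike, at 4.73, 3.94 and 5.43 in wild type and 3.97, 3.40 and 4.43 in knockout. With the replicate block the limma adjusted p was 0.00745 for Apoe and 0.0282 for Fads2. Whether the numbers mark a pairing was not tested further. The rows called higher and lower were 130 and 248 without a filter, 57 and 168 without the trend, 82 and 113 with the glial covariate, 188 and 341 with the replicate block, 65 and 139 without both libraries numbered 3, and 48 to 348 and 116 to 487 when 1 library was left out; the cause was not tested, except that fewer libraries were compared. The median log2 difference of the fatty acid arm, -0.20, was -0.12 with median-of-ratios rescaling, -0.33 with the glial covariate, -0.31 without both libraries numbered 3 and -0.30 to -0.12 with 1 library left out. The median log2 difference of the cholesterol arm, 0.03, was -0.047 to 0.169 with 1 library left out. None of the genes that changed sign was called. With the glial covariate Mvk was at -0.04, Mvd at -0.58, Fdps at -0.05, Nsdhl at -0.07, Hsd17b7 at -0.04, Fasn at -0.09 and Sc4mol at -0.09. Without both libraries numbered 3, Mvd was at -0.36, Hsd17b7 at -0.26, Fasn at -0.05 and Sc4mol at -0.16. With 1 library left out, differences ran from -0.20 to 0.00 for Hmgcs1, 0.00 to 0.63 for Mvk, -0.32 to 0.46 for Mvd, -0.11 to 0.16 for Fdps, -0.12 to 0.12 for Hsd17b7, -0.30 to 0.02 for Scap, -0.23 to 0.09 for Acaca, -0.01 to 0.23 for Fasn, -0.08 to 0.19 for Sc4mol. Depth is unknown, so the precision of low genes such as Fads2 and Lss could not be judged beyond the spread between libraries.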
